A study of Mus musculus with 4 samples.

Results

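To determine how cholesterol synthesis genes were expressed in the intestine of germ-free (GF) mice with or without a single *Lactobacillus* strain, 8 genes were followed across 4 Affymetrix arrays. They are the enzyme genes Hmgcs1, Idi1, Fdps, Sqle, Lss and Cyp51 and the regulator genes Insig1 and Srebf2, taken by name from 18193 genes on the arrays. The 8 genes had 19 probe sets, from 1 for Sqle and Insig1 to 5 for Hmgcs1. All mice were C57BL/6 and were kept in isolators. The GF groups carried no bacteria, and the NK318.1 groups were GF mice monocolonized with *Lactobacillus* NK318.1 and sampled 2 weeks later. Each group had 1 array for Peyer's patch cells (PP), the lymphoid follicles of the small intestine, and 1 for intestinal epithelial cells (IEC), which a figure legend of the study places in the ileum. RNA was pooled over the mice of a group. The labels do not give the age or sex of the mice on each array. With 1 array per group no difference could be tested, and every ratio below compares 2 arrays without a replicate check.

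Cells make cholesterol from acetyl-CoA by way of mevalonate, isoprenoid diphosphates, squalene and lanosterol. When sterols in the endoplasmic reticulum run low, the transcription factor SREBP2 is carried by SCAP to the Golgi, cut there and sent to the nucleus, where it switches on the genes of the pathway. When sterols are plentiful, INSIG proteins hold SCAP back. In the small intestine both epithelial crypts and villi make cholesterol, while enterocytes also take it up from the lumen and pack it into lipoproteins.

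The values are the linear MAS5 signals that the authors deposited. The median signal over all probe sets ran from 23.0 to 23.3 on the 4 arrays, and signals under 15.5 were raised to that floor before a ratio was taken. A leukocyte gene and an enterocyte gene separated the labelled tissues but do not show that each array held only the labelled cells. On the NK318.1 IEC array the signals of 11 stomach genes summed to 35848, beside 21814 for 9 enterocyte markers. Ptprc, which encodes the leukocyte antigen CD45, had a signal of 5152 and 5235 in the GF and NK318.1 PP and 271 and 23.1 in the IEC, whereas the enterocyte gene Fabp1 had 35.3, 43.5, 6604 and 4666 in the same order. The female-specific Xist was far higher in both NK318.1 arrays (log2 ratio 7.72 in PP and 6.71 in IEC) and the Y-linked Eif2s3y was under the floor in both, so colonization and the sex of the pools cannot be told apart in any ratio of NK318.1 to GF.

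RefSeq promoter windows were found for 6 of the 8 genes. The 250 bases before the annotated start are shown for Hmgcs1, Idi1 and Insig1, the 3 members with the lowest ratio of NK318.1 to GF in epithelial cells, and for Srebf2, the highest, a choice made after the values were seen. They lie on GRCm38.p6 at chr13:119690101-119690350 (plus strand), chr13:8885356-8885605 (plus strand), chr5:28071162-28071411 (plus strand) and chr15:82147019-82147268 (plus strand). Capitals mark the core of the sterol regulatory element bound by SREBP (TCACNCCA, on either strand) and the CCAAT box bound by NF-Y (CCAAT, or ATTGG on the other strand), a factor known to act with SREBP.

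Hmgcs1: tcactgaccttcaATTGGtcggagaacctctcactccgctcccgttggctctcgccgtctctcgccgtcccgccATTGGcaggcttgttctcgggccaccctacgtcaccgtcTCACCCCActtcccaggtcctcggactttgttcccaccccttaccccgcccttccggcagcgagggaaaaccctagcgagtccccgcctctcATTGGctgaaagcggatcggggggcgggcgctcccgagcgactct
Idi1: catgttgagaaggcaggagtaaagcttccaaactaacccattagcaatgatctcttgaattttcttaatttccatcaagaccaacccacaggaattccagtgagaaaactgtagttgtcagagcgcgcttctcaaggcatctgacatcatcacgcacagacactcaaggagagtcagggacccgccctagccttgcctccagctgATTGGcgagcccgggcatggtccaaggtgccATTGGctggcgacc
Insig1: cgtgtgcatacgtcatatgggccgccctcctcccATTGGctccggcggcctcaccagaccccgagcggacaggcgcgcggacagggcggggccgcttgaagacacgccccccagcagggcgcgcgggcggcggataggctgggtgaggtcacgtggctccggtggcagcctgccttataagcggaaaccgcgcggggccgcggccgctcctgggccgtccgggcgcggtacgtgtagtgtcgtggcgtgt
Srebf2: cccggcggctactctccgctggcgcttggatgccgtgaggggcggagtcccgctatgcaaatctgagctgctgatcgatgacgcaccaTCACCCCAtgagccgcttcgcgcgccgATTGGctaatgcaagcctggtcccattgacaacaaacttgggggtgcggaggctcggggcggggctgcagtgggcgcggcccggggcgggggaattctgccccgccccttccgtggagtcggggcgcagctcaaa

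The sterol regulatory element core was found in the windows of Hmgcs1, 137 bases before the start, and Srebf2, 162 bases before it. Of 32851 mouse promoter windows of this length 3.67% held these letters. Each of the 6 windows held a CCAAT box, from 1 in Cyp51, Insig1, Lss and Srebf2 to 3 in Hmgcs1, and 33.8% of all windows did. Each also held a GC box (GGGCGG or CCGCCC, not in capitals above), and 32.7% of all windows did. No match overlapped another. A match is a description of these letters and does not show that a factor binds there.

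The epithelial cells carried more of the synthesis enzymes than the Peyer's patch, and the regulator Srebf2 ran the other way. Hmgcs1, whose product makes HMG-CoA at the entry to the pathway, had a signal of 306 in GF PP, 304 in NK318.1 PP, 1243 in GF IEC and 761 in NK318.1 IEC. Idi1, the isomerase that readies isoprenoid units for joining, had 262, 173, 691 and 451 in that order. Both genes were highest in the GF epithelial cells and stayed above either PP array after colonization. Fdps, which builds farnesyl diphosphate, had 140 and 142 in the GF and NK318.1 PP and 266 and 174 in the IEC. Sqle, which oxidizes squalene in a step that limits the later pathway, had 79.7, 64.7, 200.2 and 152.7. For both, the GF epithelial cells were again highest, but the NK318.1 epithelial cells came closer to the PP arrays for Fdps than for Sqle.

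Lss, which closes the sterol rings to give lanosterol, had 72.8 and 82.1 in the GF and NK318.1 PP and 128 and 137 in the IEC. Cyp51, which demethylates lanosterol, had 69.8, 50.03, 160.5 and 123.3. Lss was the only enzyme among the members with its highest signal in NK318.1 epithelial cells. Insig1, the sterol-sensing brake on SREBP and itself an SREBP target, had 83.2 in GF PP, 65.8 in NK318.1 PP, 260.1 in GF IEC and 164 in NK318.1 IEC. Srebf2, which encodes SREBP2, had 115, 113, 82.2 and 88.5. The 5 members Hmgcs1, Idi1, Sqle, Cyp51 and Insig1 shared the order GF IEC, NK318.1 IEC, GF PP and NK318.1 PP from high to low. Whether neighbours in such an order differ beyond the spread between mice is not known, since no group has a second array.

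**Figure D1:**
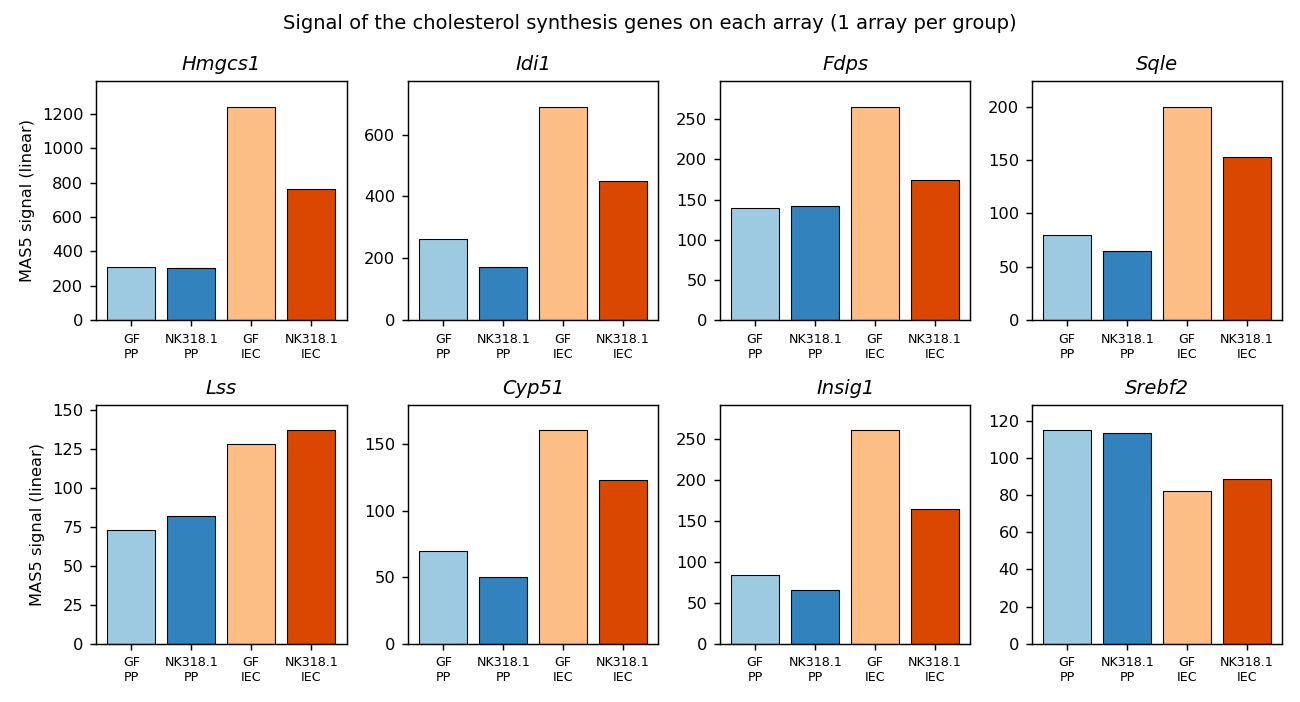
MAS5 signal (linear, y axis from 0) of each member on each array, PP in blue and IEC in orange, 1 pooled array per bar, so there are no error bars. The 6 enzymes and Insig1 are higher in both IEC arrays than in both PP arrays, and Srebf2 is lower in both.

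In GF mice 5 of the 8 members were at least 2-fold higher in epithelial cells than in the Peyer's patch, and 16.0% of 14036 measured genes were. The log2 ratio was 2.02 for Hmgcs1, 1.64 for Insig1, 1.40 for Idi1, 1.33 for Sqle and 1.20 for Cyp51. Fdps had 0.93 and Lss 0.81, short of the 2-fold limit. In the NK318.1 arrays the same 5 genes passed 2-fold, with a background of 18.4% of 14030 genes. The ratio there was 1.32 for Hmgcs1, 1.31 for Insig1 and 0.30 for Fdps, and 1.38 for Idi1, 1.24 for Sqle, 1.30 for Cyp51 and 0.74 for Lss. The tissue ratios of Hmgcs1, Fdps and Insig1 were thus smaller in the colonized pair of arrays. By the probe set used for each gene, the shift between the pairs ran from −0.090 for Sqle to 0.10 for Cyp51 among the other enzymes, but other probe sets did not share this. The second Cyp51 probe set had 0.46 in the GF and −0.55 in the NK318.1 arrays, so that its direction turned. Averaged over probe sets, Cyp51 had 0.55 and 0.25 and did not pass 2-fold. The second probe set of Idi1 went from 1.36 to 0.99, and another of Lss from 0.80 to 0.33. Srebf2 had −0.48 in the GF and −0.35 in the NK318.1 arrays. Its other probe set gave −0.89 and −1.35, past 2-fold lower in the NK318.1 arrays and with a wider gap there. The median over the members was 1.26 and 1.27, beside 0.038 and 0.11 over all measured genes. These tissue ratios use the same 4 arrays as the ratios of colonized to GF mice, and they set an epithelial against a lymphoid population, in which fewer cells of a type and less RNA per cell cannot be told apart.

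**Figure D2:**
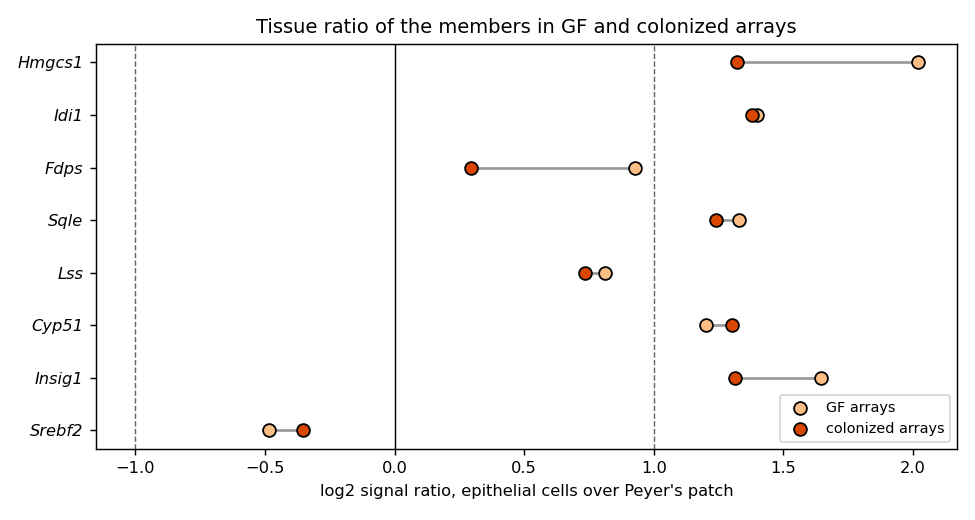
Log2 signal ratio of epithelial cells over Peyer's patch (x axis) for each member, in the GF arrays (light) and the NK318.1 arrays (dark), with dashed lines at 2-fold and 1 array per group. Hmgcs1 moves from 2.02 to 1.32 and Fdps from 0.93 to 0.30, and Srebf2 is below 0 in both. Only the probe set used for each gene is drawn, and by these Idi1, Sqle, Lss and Cyp51 shift least, although other probe sets of Idi1, Lss and Cyp51 have smaller ratios in the NK318.1 arrays. The other probe set of Srebf2 has −0.89 in the GF and −1.35 in the NK318.1 arrays.

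Next, the colonized and GF epithelial cells were compared, to ask whether *Lactobacillus* NK318.1 went with a different level of the pathway in the cells that face the lumen. Hmgcs1 was 1.63-fold lower in the NK318.1 array (log2 ratio −0.71), Insig1 1.59-fold lower (−0.67), Idi1 1.53-fold lower (−0.62) and Fdps 1.53-fold lower (−0.61). Sqle and Cyp51 were lower by less, with −0.39 and −0.38. Lss had 0.097 and Srebf2 0.11. None of the 8 members reached 2-fold in either direction, a limit that 1.54% of 13874 measured genes passed downward and 2.63% upward. At 1.5-fold, 4 of the 8 members were lower, beside 6.80% of measured genes, and none was higher. The members had a median of −0.50, beside 0.019 over all measured genes.

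The absorptive enterocyte markers were lower by a like amount on the same arrays. Of 9 measured, 8 lay below 0, with a median of −0.51, summed signals of 29623 (GF) and 21814 (NK318.1), and Anpep, a brush border peptidase, lowest at −1.23. The 6 general epithelial markers, such as Krt8 (−0.064) and Epcam (−0.12), had a median of −0.090. When ratios were centred on the general epithelial markers, the members' median was −0.41, and when they were centred on the enterocyte markers it was 0.0073, with Hmgcs1 at −0.20 and Insig1 at −0.16, and Sqle at 0.12 and Cyp51 at 0.13. Both centrings were chosen after seeing the data. Centring moves all genes alike, so it cannot change the gap between the members' median and that of all measured genes. The latter was 0.11 and 0.53 under the 2 centrings.

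Signals of cell cycle genes and of markers of other cell types also differed between the epithelial arrays. All 9 measured cell cycle genes lay above 0, with a median of 0.41 and Mki67 highest at 1.06. The signals of 11 stomach genes summed to 478 in GF and 35848 in NK318.1 mice, the 8 acinar genes 2784 and 11589, and the 8 fibroblast and smooth muscle markers 511 and 1525, whereas 9 leukocyte markers had 4267 and 531. Of the leukocyte markers 3 were under the floor in NK318.1 mice. Most of their GF sum came from Gzma (2734 in GF and 128 in NK318.1 mice) and Gzmb (689 and 28.0). Of the 9, 8 lay below 0, and Cd3e was higher (230 and 273). For β-actin, the 3′ probe set over the 5′ probe set, a measure of RNA quality, gave 2.73 in GF and 4.10 in NK318.1 epithelial cells and 1.60 and 1.74 in the PP. The part of these differences in the members' ratios was not tested.

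Most other probe sets of the members pointed the same way in epithelial cells. Of 17 measured probe sets, 15 lay below 0, beside 48.2% of all measured probe sets that name 1 gene. The 5 probe sets of Hmgcs1 ran from −1.08 to −0.57, and the second probe set of Idi1, at 181 in GF and 91.0 in NK318.1 mice, had −0.99. A weaker probe set of Cyp51 (63.9 and 28.1) had −1.19, against −0.38 for the probe set used. At least 2-fold lower were 3 of the 17, from Hmgcs1, Cyp51 and Lss, beside 1.39% of all. Lss and Srebf2 were the genes whose probe sets disagreed. The other probe sets of Lss gave −0.31 (35.1 and 28.3) and at least 2.24-fold lower (34.8 in GF and under the floor in NK318.1 mice), and that of Srebf2 gave −0.44 (61.4 and 45.1). Probe sets of 1 gene share its transcripts and are not replicates. The remaining probe sets of Fdps and Cyp51 were under the floor on all 4 arrays.

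**Figure D3:**
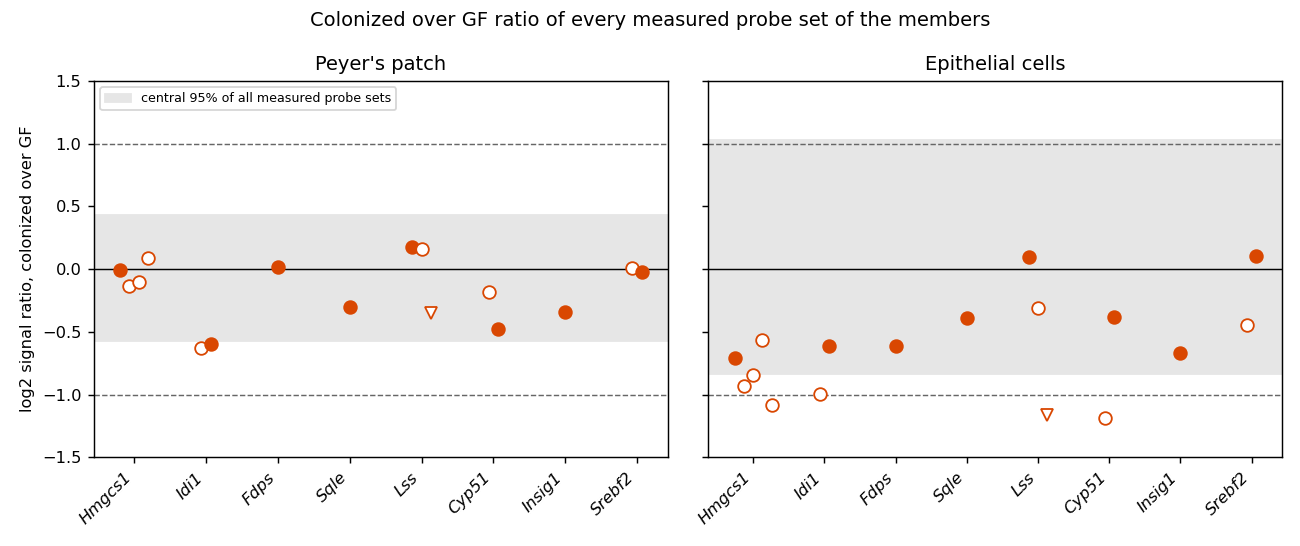
Log2 signal ratio of NK318.1 over GF (y axis) for every measured probe set of the members, in PP (left) and IEC (right). Filled points are the probe sets that stand for the gene, open points the others, triangles bounds against the floor, dashed lines 2-fold, and the grey band the central 95% of all measured probe sets. In IEC, 15 of 17 points lie below 0, while in PP the probe sets of Hmgcs1, Fdps and Srebf2 lie close to 0 and both of Idi1 lie near −0.60.

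In the Peyer's patch, Idi1 stood lowest among the members. Its signal was 1.51-fold lower in NK318.1 than in GF mice (log2 ratio −0.60), and its second probe set gave −0.63. Cyp51 had −0.48, Insig1 −0.34 and Sqle −0.30, while Hmgcs1 (−0.010), Fdps (0.019) and Srebf2 (−0.021) had nearly equal signals on both arrays. Lss had 0.17. Another probe set of Cyp51 gave −0.18, and those of Lss gave 0.16 and, as a bound, −0.35. None of the members reached 2-fold, which 0.573% of 12736 measured genes passed downward and 0.149% upward. At 1.5-fold only Idi1 was lower, beside 2.74% of measured genes. The members' median was −0.16, beside −0.033 over all measured genes, and 11 of their 16 measured probe sets lay below 0, beside 56.3% of all measured probe sets. All 9 measured cell cycle genes were lower on the same arrays, with a median of −0.50, and their part in the members' ratios was not tested.

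Idi1, Sqle, Cyp51 and Insig1 were therefore lower in the NK318.1 array of both tissues, while Hmgcs1 and Fdps were lower in epithelial cells and nearly equal in the Peyer's patch. These differences between tissues carry no test.

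The other enzymes of the pathway were then examined, of which 12 of 15 listed had values and the rest were not analysed here. None reached 2-fold in either tissue. Of all measured genes 47.6% lay below 0 in epithelial cells and 57.2% in the Peyer's patch, beside which the counts of this and the following lists are to be read. In epithelial cells 10 of the 12 lay below 0, with a median of −0.13. Lowest were Msmo1 and Hsd17b7, which act in sterol demethylation. Msmo1 stood at 230.1 in GF and 142 in NK318.1 mice (log2 ratio −0.70, another probe set −0.71), and Hsd17b7 had 211 and 146 (−0.53). Lbr, a nuclear envelope protein that is also a sterol reductase, followed at −0.45. Highest were the phosphomevalonate kinase gene Pmvk (0.28), Dhcr7 (0.058), which carries out the last reduction to cholesterol, and Mvd (−0.0076), which makes isopentenyl diphosphate. Msmo1 was the only gene of the 12 at least 1.5-fold lower, beside 6.80% of all measured genes. Members and other enzymes together gave 15 of 18 genes below 0 and a median of −0.33. In the Peyer's patch 9 of the 12 lay below 0, with a median of −0.095 beside −0.033 over all genes, from Hsd17b7 (−0.36), Sc5d (−0.21), a desaturase, and Msmo1 (−0.14, another probe set 0.20) to Lbr (0.016), Dhcr7 (0.089) and the mevalonate kinase gene Mvk (0.45, another probe set 0.047). Other probe sets of Hsd17b7 gave −0.22 and 0.022 there, and another of Sc5d gave 0.16.

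Of the regulators that move or hold SREBP, 9 had values and none reached 2-fold. In epithelial cells the highest were Scap, the SREBP escort, with 179 in GF and 263 in NK318.1 mice (0.56, but −0.12 by another probe set), Srebf1 (0.31), which encodes SREBP1, and the ubiquitin ligase gene Rnf145 (0.26). The lowest were Erlin2 (−0.47) of the endoplasmic reticulum, the protease gene Mbtps2 (−0.47), whose product cuts SREBP in the Golgi membrane, and the ubiquitin ligase gene Rnf139 (−0.42). In the Peyer's patch the list ran from Mbtps1 (−0.23), the other SREBP protease, Mbtps2 (−0.21) and Scap (−0.14) to Erlin2 (−0.0035), Insig2 (0.027) and Rnf139 (0.029). Other probe sets of Insig2 gave −0.33 and −0.079 there. The medians were −0.17 in epithelial cells and −0.098 in the Peyer's patch.

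Genes of cholesterol uptake and of its release from lysosomes did not share 1 direction in epithelial cells. Stard4, a sterol carrier that SREBP2 is known to induce, had 606 in GF and 308 in NK318.1 mice. Its log2 ratio was −0.97, just short of 2-fold, and 2 other probe sets gave −0.87 and −0.72. The luminal cholesterol transporter gene Npc1l1 had 311 and 244 (−0.35), and Mylip, a ligase that degrades lipoprotein receptors, −0.31. Lrpap1, a chaperone of that receptor family, was the only 1 of 10 genes at least 2-fold higher, beside 2.63% of all measured genes. Its signals were 220.5 and 496 (1.17, other probe sets from 0.21 to 1.14). Npc1 (0.48) of the lysosome and the lipoprotein receptor gene Scarb1 (0.36) came next, and the median was 0.082. Npc1l1 lay under the floor in both PP arrays. The 9 genes measured in the Peyer's patch ran from Lrp1 (−0.20), Stard4 (−0.16) and Mylip (−0.15) to Stard3 (−0.0079), Lrpap1 (0.022) and Npc2 (0.11), with a median of −0.051. Other probe sets of Lrpap1 ran from −0.49 to −0.12 there.

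Among 8 genes of sterol efflux, sterol sensing and lipoprotein assembly, 7 lay below 0 in epithelial cells and the median was −0.44. The esterification genes Soat1 and Soat2 were listed with them but are not analysed here. Apob, the structural protein of chylomicrons, had 1622 in GF and 774 in NK318.1 mice, a log2 ratio of −1.07, although another probe set gave −0.17. Apoa1 had 7939 and 4651 (−0.77), and Abcg1, a sterol exporter, 70.3 and 41.4 (−0.76, another probe set −0.10). Highest were Abca1 (0.073), also an exporter, and the enterocyte exporter genes Abcg5 (−0.19) and Abcg8 (−0.25). In the Peyer's patch, where 6 were measured, Abcg1 had −0.50, Abca1 −0.38, Mttp 0.013, Abcg8 0.039 and Nr1h3, the gene of the sterol receptor LXRα, 0.36. Apoa1 had 0.39 as a bound, since its GF signal was under the floor.

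The fatty acid synthesis genes, which SREBP1 is known to drive, split in epithelial cells. Me1, the malic enzyme that supplies NADPH, was higher, with 112 in GF and 301 in NK318.1 mice (1.43, another probe set 1.33), and Fasn and Fads1 both had 0.73, although another probe set of Fads1 gave −0.32. Scd2, a desaturase, was lower, with 367 and 118 (−1.64), but its 2 other probe sets gave −0.33 and −0.22. Fads2 (−0.41) and Acss2 (−0.26) were next lowest, and the median of the 10 genes was −0.097. In the Peyer's patch 9 of the 10 lay below 0, beside 57.2% of all genes, from Elovl6 (−0.57), Scd1 (−0.38) and Scd2 (−0.37) to Acly (−0.074), Me1 (−0.0084) and Acss2 (0.0096), with a median of −0.14. Other probe sets of Elovl6 gave −0.32 and 0.16 there. The isoprenoid branch that leaves the pathway after Fdps had medians of 0.0054 in epithelial cells and −0.059 in the Peyer's patch. Its 7 genes ran from Pdss2 (−0.15), Ggps1 (−0.12) and Fnta (−0.099) to Coq2 (0.027), Pggt1b (0.18) and Dhdds (0.41) in the former, and from Pggt1b (−0.27), Ggps1 (−0.19) and Coq2 (−0.10) to Pdss2 (0.078), Fntb (0.15) and Fnta (0.22) in the latter. In epithelial cells another probe set of Pdss2 gave 0.32, and the others of Dhdds gave −0.097 and 0.27. Other probe sets of Ggps1 ran from −0.44 to 0.071 in epithelial cells and from −0.021 to 0.088 in the Peyer's patch.

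**Figure D4:**
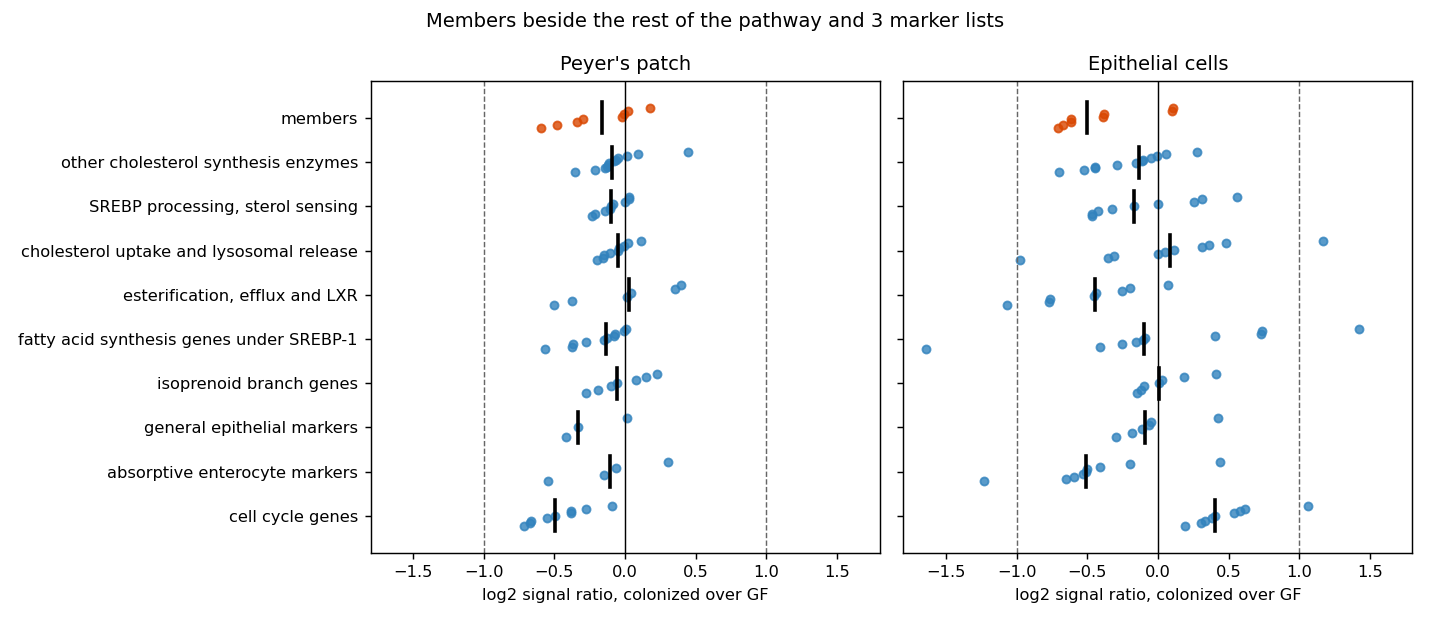
Log2 signal ratio of NK318.1 over GF (x axis) for each measured gene of the members, 6 other lists of the pathway and 3 marker lists, in PP (left) and IEC (right). Black bars are medians and dashed lines 2-fold. In IEC the enterocyte markers (−0.51), the members (−0.50) and the efflux list (−0.44) have the lowest medians of those drawn. The cell cycle genes have the highest (0.41). The row named esterification, efflux and LXR holds no measured esterification gene.

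Finally, genes with a profile like that of the members were sought among 11419 other genes above the floor on all 4 arrays, by the root mean square distance of log2 signals centred on each gene's own mean. The nearest to the members' mean profile were Gnmt, a methyltransferase (distance 0.012), Pex7, an import receptor of peroxisomes (0.023), the mitochondrial ADP/ATP carrier gene Slc25a5 (0.035), the fucosyltransferase gene Fut4 (0.041) and Chmp6, a membrane remodelling gene (0.045). Slc25a5, for example, had 3391 and 3054 in the GF and NK318.1 PP and 7702 and 5515 in the IEC. Gnmt, the nearest, was weak, with 18.1, 16.2, 39.9 and 29.9 in that order, close to the floor of 15.5 in the PP. Of the 11419 genes, 268 lay at least as near to the mean profile as Sqle (0.14), the nearest member. At least as near as Srebf2 (0.74), the farthest, were 7041. The members, Srebf2 included, form that mean, so their distances to it are not an independent measure.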

How the data were processed

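Total RNA of pooled PP cells and IEC was measured on 4 Affymetrix arrays, 1 per group and tissue. The authors deposited a linear signal intensity per probe set made with MAS5, of which the sources used here give no version or settings. The methods also name limma, whose test needs replicates. Of 45037 probe sets besides 64 controls, 34945 name 1 gene in the platform annotation, 9160 none and 932 several, which were left out. Of several probe sets, the one with the highest log2 intensity averaged over the 4 arrays stood for the gene. As floor, the 40th percentile of each array was taken and the median of these used. A gene was measured in a comparison when either array lay above it, and the log2 ratio was read against the 2-fold limit of the methods. The number of arrays limits the precision, and no p-value was computed.

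The members and gene lists were chosen with earlier results of these data known. Named are all members, genes of the 6 pathway lists that differ 2-fold or are among the 3 highest or lowest in a tissue, and the 5 nearest profiles; other genes serve as markers. Of the genes on the lists, 18 are not analysed here. The motif letters come from general knowledge. Alternatives were scaling to the same median, quantile normalization, floors at the 25th or 60th percentile or none, the mean over probe sets, leaving out less specific probe sets, and limits of 1.5-fold and 4-fold. The procedure was tested on simulated data with planted shifts of 4-fold. These are larger than any member's ratio of NK318.1 to GF, so that test does not cover ratios of the members' size. Python 3.11.15, numpy 2.4.6, pandas 2.3.3 and matplotlib 3.10.9 were used.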

Additional observations from a re-analysis of the deposited data

Results flagged for a closer look

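For 10 genes of the pathway lists the ratio of NK318.1 to GF was above 0 in 1 tissue and below 0 in the other, by at least 0.1 on the log2 scale in each. No member was among them. The difference, epithelial cells minus Peyer's patch, was 0.88 for Fads1, 0.78 for Scd1, 0.70 for Scap, 0.51 for Lrp1, 0.47 for Scarb1, 0.46 for Pggt1b and 0.42 for Srebf1, which by the probe set used were higher in NK318.1 epithelial cells and lower in the NK318.1 Peyer's patch. For the 3 genes with the largest of these differences, the opposite signs did not hold on another probe set. The Fads1 signs were reversed there, at 0.16 in the Peyer's patch and −0.32 in epithelial cells. For Scd1 (−0.81 and −0.14) and Scap (−0.38 and −0.12) the ratio was below 0 in both tissues, though less so in epithelial cells. The 2 other probe sets of Pggt1b were below 0 in the Peyer's patch and had −0.13 and 0.087 in epithelial cells. The difference was −1.16 for Apoa1 (a bound in the Peyer's patch), −0.79 for Nr1h3 and −0.73 for Mvk, which ran the other way. Another probe set of Mvk had 0.047 in the Peyer's patch, short of the 0.1 limit, and −0.15 in epithelial cells. The difference was not tested for any of them, since each rests on 4 arrays without replicates.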

How the results depend on the processing

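No paired analysis was possible because the groups hold 1 array each, and for the same reason no replicate could be left out. Of 76 recomputed counts of members, 72 stayed within 1.5 times the value given. The recomputed values include the 2 centrings chosen after seeing the data. At 2-fold every count of members between NK318.1 and GF was 0, and so was that of members lower in epithelial cells than in the Peyer's patch. For these, staying within the range meant only remaining at 0, which says little about the members' ratios. The number of members lower in NK318.1 mice was 0 at 2-fold, whereas at 1.5-fold it was 4 in epithelial cells and 1 in Peyer's patch cells, and the number higher in epithelial cells than in the Peyer's patch was 1 in GF and 0 in NK318.1 mice at 4-fold. Of 30 members' medians 25 moved by at most 0.1. The tissue medians were 1.51 in GF and 1.42 in NK318.1 mice after quantile normalization, which shifted the median of all genes from 0.038 to 0.16 in GF mice, and 1.07 and 0.77 with probe sets averaged. The median in epithelial cells went to 0.0073 when centred on enterocyte markers. Of the members past 2-fold none changed sign, and Fdps (1.16) and Lss (1.08) passed 2-fold between the tissues of GF mice after quantile normalization. Some smaller ratios of NK318.1 to GF did change sign. In epithelial cells Lss kept its sign in 7 of 9 recomputations (−0.46 to 0.61), and Srebf2 (−0.17 to 0.62), Sqle and Cyp51 in 8 of 9. In the Peyer's patch Hmgcs1, Lss and Srebf2 each kept theirs in 6 of 7. The other members' ratios kept their sign throughout. Of all genes, 223 instead of 365 were 2-fold higher in NK318.1 epithelial cells with probe sets averaged, and 29 instead of 19 in the Peyer's patch with no floor.

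Of 182 recomputed medians of the other lists, 154 moved by at most 0.1. In epithelial cells they became −0.21 for general epithelial markers, −2.34 for leukocyte markers and 2.80 for acinar genes with quantile normalization; 0.088 for fatty acid synthesis genes, 0.48 for fibroblast and muscle markers, −1.28 for leukocyte markers and 3.24 for acinar genes with probe sets averaged; −0.049 for uptake genes, 0.79 for fibroblast and muscle markers, −0.097 for isoprenoid genes, −0.70 for leukocyte markers and −0.29 for other synthesis enzymes without less specific probe sets; −2.61 for leukocyte markers under a 60th percentile floor; and 1.28 for fibroblast and muscle markers with the floor at the 25th percentile or none. In the Peyer's patch they became 0.22 for enterocyte markers, −0.17 for efflux genes, −0.35 for fibroblast and muscle markers, 0.25 for acinar genes and −0.32 for stomach genes with the floor at the 60th percentile; 0.11 for enterocyte markers, −0.18 for efflux genes, −0.12 for fibroblast and muscle markers, −0.16 for general epithelial markers and 0.078 for isoprenoid genes without less specific probe sets; −0.10 for fibroblast and muscle markers with probe sets averaged; and 0.091 and −0.15 for general epithelial markers when the floor was the 25th percentile or none. The cause of these shifts was not tested. Values near the floor, such as the second Lss probe sets, are the least certain.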
